A study of Columba livia with 18 samples.

Results

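The 3 RAB5 genes of the pigeon (Columba livia) and 7 genes for proteins that switch on RAB5 or act with it on early endosomes were followed in auditory hair cells with and without cuticulosomes. A cuticulosome is a small iron-laden body that lies within the cuticular plate, the actin-dense platform beneath the stereocilia of the hair cell. The 10 genes were chosen by symbol: RAB5A, RAB5B, RAB5C, EEA1, RABEP1, RABGEF1, APPL1, APPL2, ZFYVE20 and RIN2. RAB5B was picked because its difference between the 2 cell types was already known from these data, so its difference is described here and not tested, and the other genes were set around it by their known role. All 10 symbols were found, each with 1 of the 20918 gene models of the table, and all 10 were among the 11393 whose mean FPKM exceeded 1. FPKM counts fragments relative to the length of the transcript and to all mapped fragments of the library. Levels of different genes can therefore be set side by side, though errors in a gene model or in mapping remain.

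The cochlear duct was dissected from 9 pigeons of 1 year and its lagena was removed. The rest was lightly trypsinized, and held the basilar papilla, which is the auditory epithelium of the bird, together with tissue around it. From each pigeon 30 hair cells in which a cuticulosome was seen under the light microscope were picked with a micropipette into 1 pool, and 30 hair cells in which none was seen into another. This gave 9 libraries of hair cells with cuticulosomes and 9 libraries of hair cells without cuticulosomes, paired by bird and spread over 3 flow cells of 3 birds each: pigeons 433, 434 and 435 on the first, 450, 451 and 458 on the second, 513, 514 and 515 on the third. The labels name no transgene and no treatment. Each library is a pool of cells, so fewer cells that express a gene and less of its RNA per cell cannot be told apart.

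RAB5 proteins are small GTPases that switch between a GDP-bound and a GTP-bound state and mark the early endosome, the first station of material taken up from the cell surface. Exchange factors such as RABGEF1 (Rabex-5) and RIN2 load them with GTP, and the loaded form recruits effectors: RABEP1 (Rabaptin-5), which binds RABGEF1, the tether EEA1, ZFYVE20 (Rabenosyn-5), and APPL1 and APPL2, adaptors on a peripheral class of endosomes. These roles were worked out mostly in mammalian cells. Hair cells take up membrane at their apical surface and at their synapses.

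The libraries carried the markers of hair cells. The summed FPKM of 14 of 17 hair cell marker symbols that were found was 562 to 6221 in hair cells with cuticulosomes and 3101 to 6547 in hair cells without cuticulosomes. The supporting cell markers SOX2 and GFAP were listed at 0 in 6 and 8 of the libraries with cuticulosomes and in 7 and 9 of those without, although the sum of all supporting cell markers (15 of 17 symbols) was 263 to 3857 FPKM with and 242 to 1215 FPKM without cuticulosomes. Sums of red blood cell markers (3 of 7 symbols) were 503 to 4689 FPKM with and 475 to 37323 FPKM without cuticulosomes. Those of neuron and glia markers (7 of 7) were 67.7 to 2098 FPKM with and 162 to 338 FPKM without cuticulosomes, and those of immune cell markers (3 of 3) 1.26 to 723 FPKM with and 0.195 to 751 FPKM without. None of the 5 sums passed a test between the cell types (exact permutation test by sign flips within birds, two-sided, adjusted p = 0.586 to 0.879), and their part in the results that follow was not tested. The sums rest largely on their most abundant genes, so they say little about scarcer markers. CD74, for example, averaged 150 FPKM with and 219 FPKM without cuticulosomes, of immune cell sums averaging 151 and 223 FPKM. The library of pigeon 435 with cuticulosomes stood apart, with the lowest sum of hair cell markers and the highest sums of supporting cell and of neuron and glia markers, and that of pigeon 435 without cuticulosomes had the highest sum of red blood cell markers. More gene models had an FPKM above 0 in hair cells with cuticulosomes, 9966 to 16008 against 8855 to 13221 without, higher in 8 of 9 birds (exact permutation test, p = 0.0117, 0.0469 after adjustment over 4 library measures). Gene models above 1 FPKM (p = 0.148), summed FPKM (p = 0.117) and relative depth (p = 0.0977) did not pass the exact permutation test, and each had 0.148 after adjustment. Relative sequencing depth, read from the spacing of the smallest values of each library, was 0.522 to 1.43 with and 0.938 to 1.43 without cuticulosomes.

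RAB5B (CLIV_018254, scaffold 39) was higher in hair cells with cuticulosomes in all 9 birds, by a median of 2.25-fold. The lowest, median and highest FPKM were 20.2, 40.7 and 90.4 with cuticulosomes and 6.30, 13.6 and 21.8 without cuticulosomes, at means of 39.5 ± 21.7 and 13.7 ± 5.09 (SD, n = 9 each). By bird, the RAB5B values were 44.4 FPKM with and 21.8 FPKM without cuticulosomes in pigeon 433, 41.6 and 20.6 in 434, 23.5 and 10.5 in 435, 46.3 and 13.6 in 450, 90.4 and 16.0 in 451, 27.3 and 13.6 in 458, 40.7 and 9.03 in 513, 20.2 and 12.2 in 514 and 21.5 and 6.30 in 515. The groups overlapped slightly: 7 of the 9 libraries with cuticulosomes lay above every library without, and those of pigeons 514 and 515 lay within the upper end of the range without cuticulosomes. The ratio within a bird was 1.66 to 5.65 and reached 2-fold in 8 birds, the lowest being that of pigeon 514 and the highest that of pigeon 451.

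On the log2(FPKM + 1) scale the mean paired difference of RAB5B was 1.39 with an SD of 0.59 over the 9 birds. It was 1.02 on the first flow cell, 1.69 on the second and 1.45 on the third, and positive in 3 of 3 birds on each. Without pigeon 435 it was 1.43, and without pigeon 451 it was 1.26. Of all 11393 gene models tested, 19 were higher in 9 of 9 birds (0.167%), and RAB5B was the only one of the 10 genes among them. Since this is the contrast on which RAB5B was picked, nothing is read from that count.

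**Figure D1:**
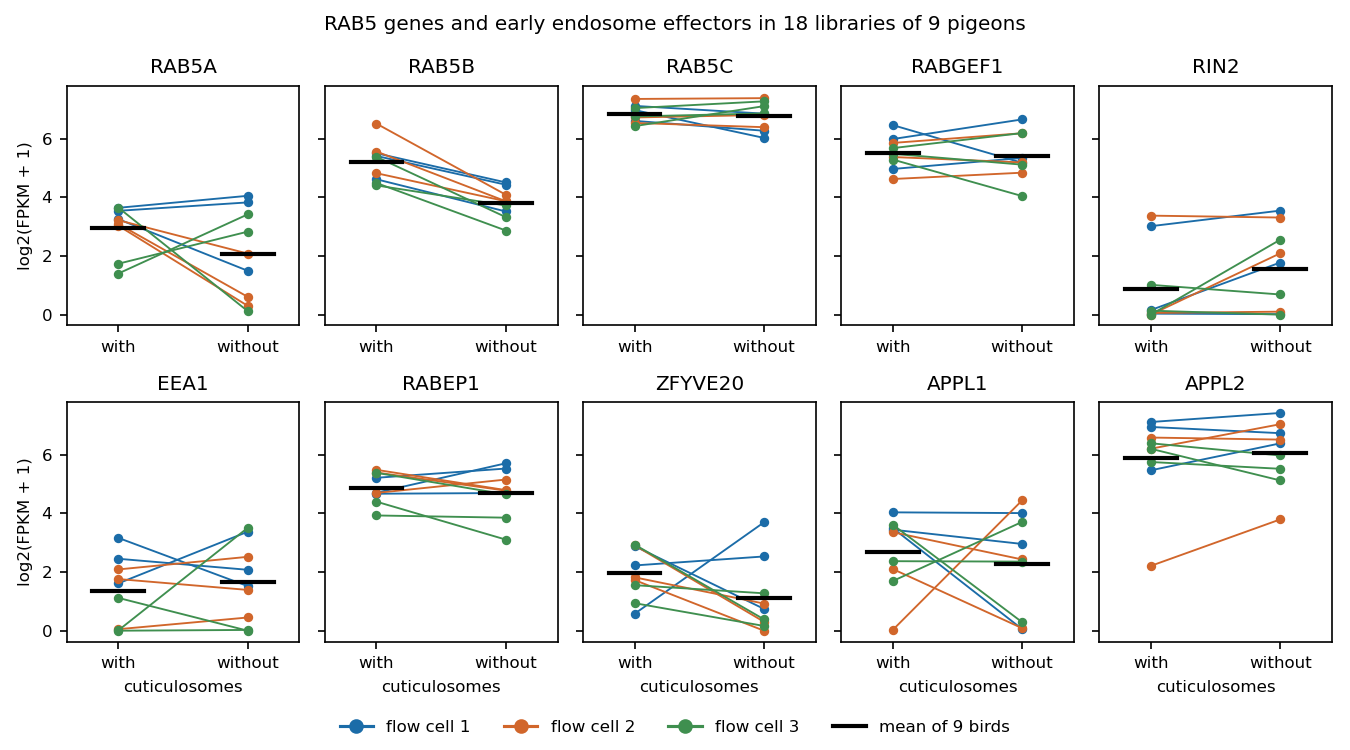
Level of each of the 10 genes on the log2(FPKM + 1) scale (y axis) in hair cells with and without cuticulosomes (x axis). Each line joins the 2 libraries of a bird, colours mark the flow cell and black bars the mean of 9 birds; the RAB5B lines all run downward to the right, those of RAB5C stay at the top of the scale, and those of RAB5A, APPL1, EEA1 and ZFYVE20 cross.

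Neither of the other RAB5 genes was higher with cuticulosomes in all 9 birds. RAB5C (CLIV_007853, scaffold 768), the paralog with the most transcript, had a lowest, median and highest FPKM of 85.3, 107 and 163 with cuticulosomes and 64.3, 115 and 166 without cuticulosomes. The ranges overlapped nearly whole, and RAB5C was higher with cuticulosomes in 4 of 9 birds. Its log2 fold change was 0.06 ± 0.21 (limma, SE), with a 95% interval of -0.38 to 0.50, and an adjusted p of 0.975 over all gene models tested. By flow cell the mean paired difference of RAB5C was 0.52 with 3 of 3 birds higher on the first, 0.01 with 1 of 3 on the second and -0.34 with 0 of 3 on the third. RAB5C was the steadiest of the 10 genes between the 2 libraries of a bird, with an SD of paired log2 differences of 0.45.

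RAB5A (CLIV_011205, scaffold 142) was low and uneven. With cuticulosomes its lowest, median and highest FPKM were 1.64, 8.32 and 11.6, and without cuticulosomes 0.0857, 3.23 and 15.6. No library with cuticulosomes lay under 1 FPKM, whereas 3 without did, those of pigeons 450, 451 and 515. RAB5A was higher with cuticulosomes in 5 of 9 birds, at a log2 fold change of 0.87 ± 0.63 (limma, SE; 95% interval -0.45 to 2.20; adjusted p = 0.902). This value was 0.25 without the second flow cell, 0.54 without pigeon 515 and 1.44 with a pseudocount of 0.1. Its paired differences had an SD of 1.91, more than 3 times that of RAB5B, and the 3 birds of the second flow cell were all higher with cuticulosomes, by a mean of 2.12.

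RAB5C was the highest of the 3 paralogs in 18 of 18 libraries, and RAB5B lay above RAB5A in 17 of 18, the exception being pigeon 435 without cuticulosomes. The level of RAB5A less that of RAB5C was -3.89 ± 0.93 on the log2(FPKM + 1) scale with cuticulosomes and -4.70 ± 1.64 without cuticulosomes (SD, n = 9 birds each; exact permutation test by sign flips, two-sided, p = 0.0039 in each, the smallest that 9 pairs allow, and 0.0039 after adjustment over the 2 comparisons). The FPKM of RAB5C thus exceeded that of RAB5A in both cell types and in every bird. The test covers the spread over birds only. It does not cover an error in a gene model or in mapping that recurs in every bird. The median ratio of RAB5C to RAB5B was 3.52 with and 10.98 without cuticulosomes.

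Set against the sum of the 3 paralogs, the RAB5B share was 23.7 ± 10.5% in hair cells with cuticulosomes and 11.5 ± 6.72% in hair cells without cuticulosomes (SD, n = 9 each). Its lowest, median and highest values were 13.2, 21.3 and 47.7% with and 4.39, 7.54 and 23.7% without cuticulosomes. The share was higher with cuticulosomes in all 9 birds, though in pigeon 434 it came to 23.7% in both. RAB5C took 71.4 ± 10.5% with and 84.3 ± 8.52% without cuticulosomes, and RAB5A 4.90 ± 2.77% with and 4.26 ± 4.52% without. The FPKM summed over the 3 paralogs was 163 ± 29.0 with and 133 ± 31.7 without cuticulosomes. These shares rest in part on the RAB5B values by which the gene was picked and were not tested.

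**Figure D2:**
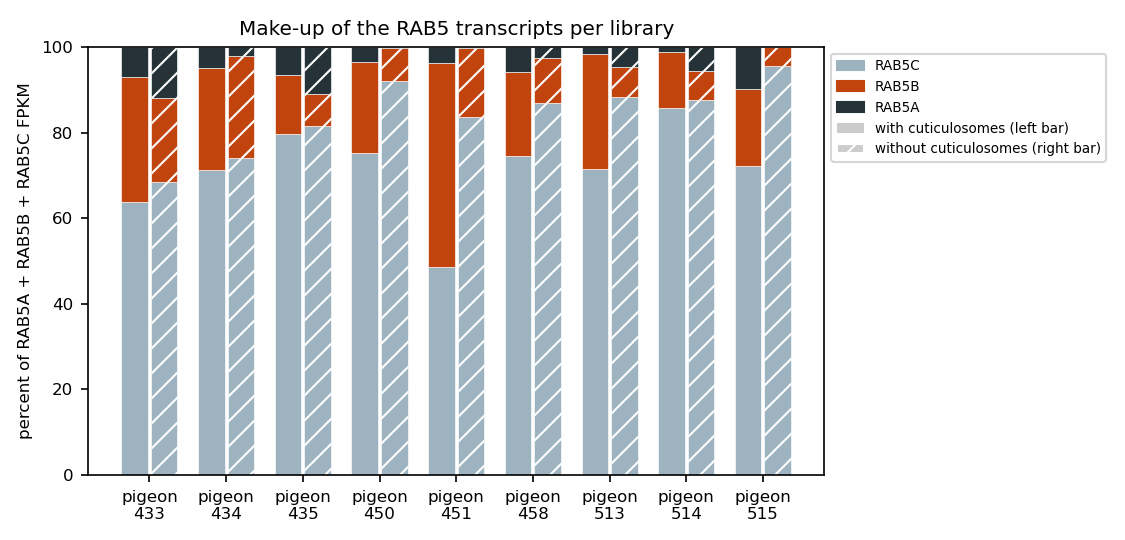
Percent of the summed FPKM of RAB5A, RAB5B and RAB5C (y axis) taken by each paralog in every library, grouped by bird (x axis), with plain bars for hair cells with cuticulosomes and hatched bars for hair cells without. RAB5C is the largest segment in all 18 bars, and the RAB5B segment is the widest in pigeon 451 with cuticulosomes, at 47.7%.

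Within birds, the log2 difference of RAB5B exceeded that of RAB5C by 1.33 ± 0.82 (SD, n = 9), with values above 0 in 9 of 9 birds and a range of 0.03 to 2.30. The near-zero value is that of pigeon 434, in which RAB5C was also higher with cuticulosomes, at 125 FPKM against 64.3 FPKM without. Against RAB5A the excess was 0.52 ± 1.72, above 0 in 4 of 9 birds, and it was 0.01 with a pseudocount of 0.1. The difference of RAB5B therefore stood above that of RAB5C in every bird, while it was not set apart from that of RAB5A beyond the spread over birds. Both are descriptions with no test.

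Among the exchange factors, RABGEF1 (CLIV_002790, scaffold 94) was abundant in both cell types. Its lowest, median and highest FPKM were 23.7, 43.8 and 87.4 with cuticulosomes and 15.5, 35.6 and 100 without. RABGEF1 was higher with cuticulosomes in 4 birds, and its log2 fold change was 0.11 ± 0.29 (limma, SE; 95% interval -0.51 to 0.73; adjusted p = 0.973). The sign of this value turned without pigeon 434, without pigeon 515 and without the last of the flow cells. RIN2 (CLIV_008942, scaffold 628) was the lowest of the 10 genes and mostly near 0, with a median of 0.0978 FPKM with and 2.43 FPKM without cuticulosomes and 10 of 18 libraries under 1 FPKM. It was listed at 0 in 3 libraries, and its highest values, 7.09 and 9.39 FPKM with and 10.7 and 8.93 FPKM without cuticulosomes, came from both libraries of pigeons 435 and 458. Its log2 fold change was -0.70 ± 0.46 (limma, SE; adjusted p = 0.902).

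Of the effectors, RABEP1 (CLIV_002714, scaffold 94) had a lowest, median and highest FPKM of 14.3, 25.1 and 43.9 with cuticulosomes and 7.62, 26.5 and 51.4 without. RABEP1 was higher with cuticulosomes in 5 birds, at a log2 fold change of 0.18 ± 0.32 (limma, SE; 95% interval -0.50 to 0.86; adjusted p = 0.951). Its paired difference had opposite signs on the flow cells, -0.45 on the first with 0 of 3 birds higher, 0.28 on the second with 2 of 3 and 0.70 on the third with 3 of 3. EEA1 (CLIV_012786, scaffold 297), the long coiled-coil tether of early endosomes, was low: its lowest, median and highest FPKM were 0, 2.06 and 7.98 with cuticulosomes and 0, 1.87 and 10.4 without, and 6 of 18 libraries lay under 1 FPKM. EEA1 was higher with cuticulosomes in 4 of 9 birds, with a log2 fold change of -0.29 ± 0.55 (limma, SE; adjusted p = 0.953), which became 0.11 without pigeon 513. The groups overlapped throughout for both genes.

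ZFYVE20 (CLIV_011701, scaffold 362), which binds RAB5 and the fusion regulator VPS45, was higher with cuticulosomes in 7 of 9 birds but at low levels. Its FPKM was 0.492, 2.53 and 6.66 at the lowest, median and highest library with cuticulosomes and 0, 0.675 and 11.97 without. Of the 8 libraries under 1 FPKM, 2 were with and 6 without cuticulosomes, yet the highest of all 18 was a library without, that of pigeon 434. The log2 fold change was 0.84 ± 0.59 (limma, SE; 95% interval -0.41 to 2.09; adjusted p = 0.902). It was 0.39 without the second flow cell, 1.33 without pigeon 434 and 1.70 with a pseudocount of 0.1.

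The APPL adaptors lay at unlike levels, APPL2 with the abundant genes and APPL1 with the scarce ones. APPL2 (CLIV_018396, scaffold 275) had a lowest, median and highest FPKM of 3.63, 73.0 and 138 with cuticulosomes and 12.9, 82.9 and 171 without. Both of its lowest values were those of pigeon 450. The relative depth of that bird was 0.522, the lowest of all, in the library with cuticulosomes and 1.08 in the library without. The part of depth in these values was not tested. APPL2 was higher with cuticulosomes in 5 of 9 birds, at a log2 fold change of -0.18 ± 0.29 (limma, SE; 95% interval -0.79 to 0.42; adjusted p = 0.943). APPL1 (CLIV_011551, scaffold 448) ranged over 0.0183, 9.27 and 15.4 FPKM with and 0.0387, 4.39 and 20.8 FPKM without cuticulosomes. The value of 15.4 FPKM came from pigeon 435, the library with the lowest sum of hair cell markers. APPL1 was higher with cuticulosomes in 7 birds, but with the widest scatter of the 10 genes (SD of paired log2 differences 2.50), and its log2 fold change was 0.42 ± 0.73 (limma, SE; adjusted p = 0.948). With each bird left out this value was 0.046 to 1.03, the lowest without pigeon 434 and the highest without pigeon 450, and without the first flow cell it was -0.025.

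**Figure D3:**
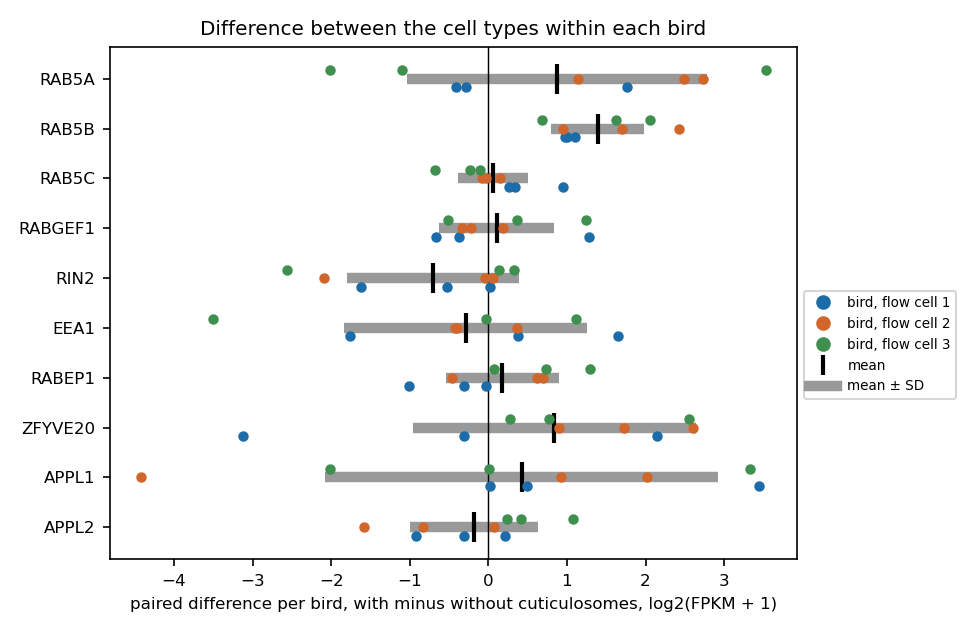
Paired difference between hair cells with and without cuticulosomes on the log2(FPKM + 1) scale (x axis, positive means higher with cuticulosomes) for each of the 10 genes (y axis). Each point is 1 bird, coloured by flow cell, black ticks are means and grey bars mean ± SD over 9 birds; only the RAB5B points lie all to the right of 0, and the RAB5C points are the closest together.

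None of the 9 genes other than RAB5B passed an adjusted p of 0.05 in the comparison of the cell types, nor did any of the 11393 gene models tested (0%; limma with the bird as a block, smallest adjusted p = 0.902). This 0% is the outcome of limma on log2(FPKM + 1). The authors' own comparison of counts, which was not used here, did report genes past an adjusted p of 0.05. At an unadjusted p under 0.05 limma had 601 gene models (5.28%), 372 higher (3.27%) and 229 lower (2.01%) with cuticulosomes, and none of the 9 genes other than RAB5B was among them. On values simulated with the spread of these libraries the same fit called 6 of 67 gene models changed by 1 on the log2 scale, 33 of 67 changed by 2 and 48 of 66 changed by 3. All of these were shifted upward together in the same draw. The adjusted threshold is harder to pass when fewer gene models change, so these rates do not give the power for a lone changed gene. By sign alone, 6 of the 9 genes other than RAB5B had a log2 fold change above 0, against 53.9% of all gene models tested, and 2 of the 9, APPL1 and ZFYVE20, were higher in at least 7 of 9 birds, against 8.27%. The median log2 fold change was 0.14 over the 10 genes, 0.11 without RAB5B and 0.05 over all gene models tested.

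In order of level over both cell types, RAB5C came first with a mean log2(FPKM + 1) of 6.81 ± 0.32, then APPL2 with 5.97 ± 1.24, RABGEF1 with 5.47 ± 0.58, RABEP1 with 4.79 ± 0.58 and RAB5B with 4.50 ± 0.53 (SD over 9 birds). RAB5A followed at 2.52 ± 0.78, APPL1 at 2.47 ± 0.86, ZFYVE20 at 1.53 ± 0.57, EEA1 at 1.51 ± 0.98 and RIN2 at 1.22 ± 1.28. Among neighbours in this order, RABGEF1 lay above RABEP1 in 8 of 9 birds, RAB5B above RAB5A in 9 of 9 by a mean of 1.98 and APPL1 above ZFYVE20 in 7 of 9, each by more than the SD of the difference over birds. The other neighbours did not differ beyond their spread. Of these, RABEP1 and RAB5B were in opposite order in the cell types. Their means were 30.1 and 39.5 FPKM with cuticulosomes and 28.3 and 13.7 FPKM without. The 10 genes thus fell into 5 of high and 5 of low level, with the largest step between RAB5B and RAB5A. The 5 of high level had at least 1 FPKM in all 18 libraries, as did 31.2% of all gene models tested, and those of low level each fell under 1 FPKM in 3 to 10 libraries. The SD of paired log2 differences was 0.45 to 0.81 in the genes of high level and 1.09 to 2.50 in those of low level. Its median was 0.95 over the 10 genes and 1.46 over all gene models tested.

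Levels were also compared between the 3 flow cells, on the mean of the 2 libraries of each bird. No gene model passed an adjusted p of 0.05 (limma F test, 0% of 11393, 1082 or 9.5% at an unadjusted p under 0.05), and none of the 10 genes passed either one, EEA1 having the smallest adjusted p, 0.606. Without pigeon 450 the test called 52 gene models between flow cells. The difference between the cell types was not found to vary with the flow cell for any of the 10 genes (limma F test on the paired differences, adjusted p of 0.989 and above, none at an unadjusted p under 0.05), and for none of the 11393 gene models tested (0%, with 567 or 4.98% at an unadjusted p under 0.05). Both tests had little power. With simulated shifts of 1, 2 and 3 on the log2 scale in 1 flow cell, each called 0 of 67, 0 of 67 and 0 of 66 gene models, and calls came only with shifts raised to 4, 8 and 12, at 45, 66 and 66 gene models for the flow cells and 18, 55 and 63 for the variation of the cell type difference. The contrary signs of RAB5C and RABEP1 on the first and the third of the flow cells are therefore given as values without a call.

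A wider set of 54 symbols was listed by role, for proteins that act with RAB5 or, more widely, on Rab proteins and endosomes. Of these, 40 symbols were found, with 45 gene models, and 41 gene models had a mean FPKM above 1. None passed the adjusted threshold (limma, smallest adjusted p = 0.902). By sign 22 were higher and 19 lower with cuticulosomes, and at an unadjusted p under 0.05 there was 1 higher (USP6NL, CLIV_017973) and 1 lower (TGFBRAP1), against 3.27% higher and 2.01% lower of all gene models tested. CLIV_017973 was listed at 0 in 6 libraries and had a log2 fold change of 1.28 ± 0.50, against 0.31 ± 0.52 for the other USP6NL gene model, CLIV_017974 (limma, SE). The median log2 fold change was 0.10, against 0.05 over all gene models tested, but it was 0.013 without pigeon 433 and turned to -0.055 without the first and -0.12 without the third of the flow cells. By role the median was -0.52 for 4 gene models of guanine exchange and inhibition, 0.71 for 5 of GTPase activation, 0.53 for 10 of phosphoinositide enzymes, -0.06 for 7 of other effectors, -0.32 for 9 of tethering and fusion, 0.10 for 3 of the exit to late endosomes and 0.18 for 3 of the FERRY complex, a RAB5 effector that carries mRNA on endosomes. The 5 gene models of GTPase activation, which stand for 3 genes since USP6NL and RABGAP1 each have a pair, were above 0 by sign. Of tethering and fusion, 7 of the 9 were below 0. No gene model of these roles was called. Over all gene models tested, 53.9% had a log2 fold change above 0, and nothing is read from the counts by sign.

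In the most abundant genes of these roles the means of the cell types lay within 1 SD of each other. That SD is the spread over birds and leaves out the pairing. STX12, a SNARE of early and recycling endosomes, averaged 239 ± 76.1 FPKM with and 267 ± 81.6 FPKM without cuticulosomes, and RAB7A, the GTPase of late endosomes, 229 ± 65.5 with and 205 ± 70.6 without (SD, n = 9 each). RAB7A was higher with cuticulosomes in 7 of 9 birds, at a log2 fold change of 0.20 ± 0.18 (limma, SE). GDI2, which extracts GDP-bound Rab proteins from membranes, averaged 155 ± 53.2 FPKM with and 153 ± 41.7 FPKM without, and VPS45, which guides SNARE pairing on endosomes, 125 ± 49.5 FPKM with and 134 ± 52.9 FPKM without. CCZ1, part of the exchange factor of RAB7, had 87.0 ± 35.3 FPKM with and 89.5 ± 28.8 FPKM without cuticulosomes. WDFY2, a FYVE protein of endosomes, had 75.1 ± 39.5 FPKM with and 84.7 ± 42.8 FPKM without. Paired by bird, STX12, GDI2 and VPS45 were each higher with cuticulosomes in 3 of 9 birds, WDFY2 in 4 and CCZ1 in 5.

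The remaining genes named by role were lower. BECN1 and UVRAG (CLIV_010032), subunits of complexes of the lipid kinase that makes the endosomal phosphoinositide PI3P, had 51.5 ± 23.1 and 34.4 ± 16.5 FPKM with cuticulosomes and 67.6 ± 29.6 and 27.0 ± 25.6 FPKM without. RABGAP1, a Rab GTPase-activating protein, was annotated on a pair of gene models of scaffold 686, with log2 fold changes of 0.81 ± 0.53 (CLIV_010566) and 0.52 ± 0.51 (CLIV_010564; limma, SE). RUFY1, an effector on early endosomes, had 18.3 ± 11.05 FPKM with and 27.8 ± 18.1 FPKM without cuticulosomes, TBCK of the FERRY complex 23.8 ± 14.5 with and 20.1 ± 7.82 without, CHML, a Rab escort protein, 12.7 ± 8.37 with and 12.6 ± 12.04 without, and PPP1R21 (CLIV_019674), also of the FERRY complex, 11.96 ± 9.67 with and 8.10 ± 7.81 without. RABGAP1, UVRAG, USP6NL and PPP1R21 each had more than 1 gene model under their symbol, so that the reads of 1 gene may have been divided between them and their values are uncertain.

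**Figure D4:**
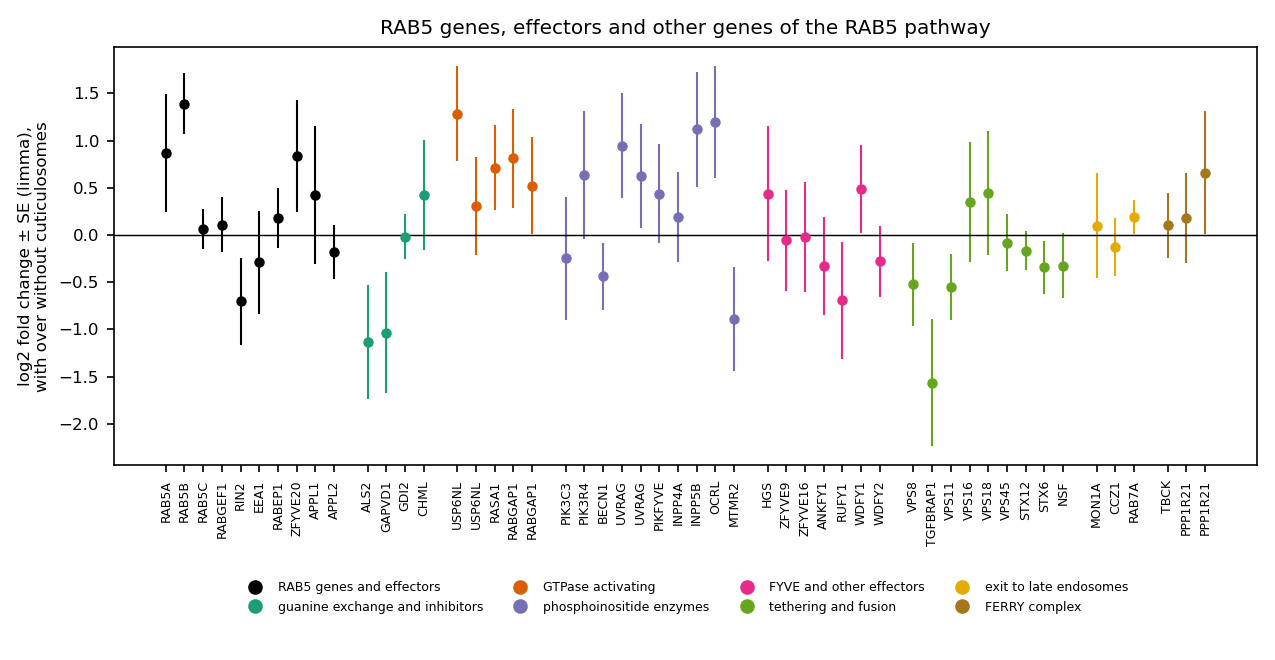
Log2 fold change of hair cells with over without cuticulosomes with its SE from limma (y axis) for the 10 genes and for 41 gene models of the RAB5 pathway grouped by role (x axis). RAB5B has the highest value shown at 1.39, and TGFBRAP1 has the lowest.

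Across the 18 libraries, RABEP1 was the one of the other 9 genes whose level followed that of RAB5B most closely, with a Spearman correlation of 0.50, or 0.63 once the mean of each cell type had been subtracted. RAB5C had correlations of -0.24 and -0.43. Over 8130 gene models above 0 in at least 14 libraries, the closest to RAB5B were FGGY (0.78), CYLD (0.76), ZNF706 (0.75), MPI (0.74) and CAP2 (0.73), and after subtraction of the cell type means MRPS17 (0.84), ATP11A (0.83), SPOCK2 (0.80), TYSND1 (0.77) and SAE1 (0.76). Over all of these gene models the correlation before subtraction had a median of 0.07, with 5% of them under -0.37 and 5% above 0.45. After subtraction the median was 0.08, with 5% under -0.42 and 5% above 0.53. The 18 points share birds in pairs, flow cells and depth, so these values describe likeness only. Before subtraction, the difference between the cell types also enters the correlation. FGGY had a mean FPKM of 23.1 with and 10.6 without cuticulosomes and was higher with them in 7 of 9 birds. The part of that difference in its correlation was not tested.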

How the data were processed

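RNA of 18 pools of hair cells, 9 with and 9 without cuticulosomes, was made into cDNA by template switching and tagmentation and read as single ends. The authors aligned the reads to a pigeon genome assembly with TopHat 1.4.1, keeping 1 hit per read, and deposited FPKM per gene model and library, estimated with Cufflinks 1.3.0 with bias correction and counting only fragments compatible with the annotation. Genes with near-identical copies can lose reads under the single-hit limit. The same table holds the mean, log2 fold change, standard error, test statistic and p-values of the authors' own comparison (HTSeq 0.6.1p1, DESeq2 1.10.1), which were not used. The table gives no counts per library, so the depth behind each value is unknown, no counting error was computed, and an FPKM of 0 was taken only as listed at 0. Gene symbols come from the table's own annotation by similarity to proteins of other species, present for 16089 gene models.

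Groups and birds were taken from the sample titles and flow cells from the labels. The FPKM were used as deposited. The cell types were compared by limma 3.58.1 (R 4.3.3), fitted to log2(FPKM + 1) with bird as blocking factor and the trend option, for gene models whose mean FPKM exceeded 1. P-values were adjusted by Benjamini-Hochberg and read at 0.05. Fold changes on this scale understate those of genes of low FPKM. Bird numbers in the titles pair the libraries. After subtraction of group means, same-bird pairs correlated at 0.121 to 0.591 across genes (median 0.183). Pairs from unlike birds correlated at -0.143 to 0.144 (median -0.0646), so the ranges overlapped slightly. Flow cells were compared by limma F tests on the means and on the differences of the birds. Single measures were tested by flipping the signs of the 9 paired differences in every way (exact permutation test, two-sided). The fits were tested on simulated data, drawn from normal distributions with no floor at 0. The simulated flow cell shifts were first 1 to 3 on the log2 scale, which the F tests did not recover. They were then raised to 4 to 12. Other steps used Python 3.11.15, numpy 2.4.6, pandas 2.3.3 and matplotlib 3.10.9.

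The alternatives were no block, a pseudocount of 0.1, other filters, upper quartile scaling, and each bird or flow cell left out. The 10 genes, the pathway list and the marker lists were chosen with earlier results of these data known. The genes named are all 10, the 2 most abundant gene models of each pathway role and the 5 most like RAB5B by each measure; USP6NL and TGFBRAP1 were named after their values were seen. Negative control libraries and quantitative PCR were not analysed here.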

Additional observations from a re-analysis of the deposited data

Results flagged for a closer look

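Of 20 groups of 9 libraries examined for the 10 genes, 2 had a highest library set apart from the others beyond Dixon's 95% critical value for the gap as a part of the range. About 1 in 20 groups is expected to do so by chance if values are normally distributed, which FPKM need not be. The first was RAB5B in hair cells with cuticulosomes, where pigeon 451 had 90.4 FPKM and the next library 46.3 FPKM (gap 0.629 of the range). Without pigeon 451 the mean paired difference of RAB5B was 1.26 on the log2 scale, against 1.39 with it. The other was ZFYVE20 in hair cells without cuticulosomes, where pigeon 434 had 12 FPKM and the next library 4.79 FPKM (gap 0.6 of the range). Without pigeon 434 the log2 fold change of ZFYVE20 was 1.33, against 0.84 with it.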

How the results depend on the processing

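Of 271 values obtained for 18 results under the alternatives, 259 kept their sign and were scored as unchanged, and 11 turned sign. Unchanged meant the same side of the threshold for a result with a p-value and an equal count for numbers called. For the RAB5B difference, its excess over the paralogs and the pathway median it meant a shift under the SD over birds. Leaving out the block or changing the filter cannot alter the log2 fold change of a gene, so part of the 259 was fixed in advance. For the 9 genes other than RAB5B the smallest adjusted p in the main fit was 0.902 (limma). Staying on the same side of the threshold could therefore hardly fail, and the 259 says little about how steady the results are. The log2 difference of RAB5B was 1.26 to 1.48 with each bird left out and 1.24 to 1.57 under the other settings. No setting called a gene model between the cell types; without the replicate block limma called 0, with 182 higher and 113 lower at an unadjusted p under 0.05, against 372 and 229 with it, and the block changed no call. With each bird left out the log2 fold change of RAB5C was -0.048 to 0.16, that of RABGEF1 -0.038 to 0.21 and that of EEA1 -0.53 to 0.11. RAB5C became -0.048 without pigeon 434 and -0.16 without the first flow cell. RABGEF1 became -0.038 without pigeon 434, -0.033 without pigeon 515 and -0.020 without flow cell 3. EEA1 had 0.11 without pigeon 513, APPL1 -0.025 without flow cell 1, APPL2 0.12 without flow cell 2 and RABEP1 -0.082 without flow cell 3, the cause being not tested in any of these. The number of gene models called between flow cells was 0 to 52 with each bird left out, 52 being the value without pigeon 450, and the cause was not tested. The pathway median was 0.01 to 0.18 with each bird left out and -0.12 to 0.21 otherwise, with -0.055 without flow cell 1 and -0.12 without flow cell 3. Read numbers per gene are unknown, so counting error could not be set beside these shifts.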
